A study of Mus musculus with 5 samples.

Results

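The regions described here were those of the Runx3 and H3K4me1 peak lists that overlapped, by at least 1 bp, the gene bodies of 10 cell cycle genes extended by 20 kb on each side. The 10 genes were E2f1, E2f2, E2f3, Ccnd2, Ccnd3, Cdk4, Cdk6, Cdkn1a, Cdkn1b and Myc. They took in 28 of the 9135 Runx3-bound regions and 44 of the 18992 H3K4me1-marked regions, and no region lay in the windows of more than 1 gene. The regions were chosen by the measured peak positions themselves, so their presence at these genes is not a finding, and the counts below are descriptions without a test.

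ChIP-seq had been performed on splenic CD8+ T cells (CD8-TC) of ICR mice, isolated by positive selection on anti-CD8 beads. The cells were TCR-activated for 2 days with plate-bound anti-CD3e and soluble anti-CD28, and then grown for 4 days with 100 u/ml IL-2. All 5 libraries came from cells treated in this way, with no untreated or Runx3-deficient group. They comprised 2 precipitations with a polyclonal anti-Runx3 antibody, 2 with non-immune serum (NIS) as control, and 1 with anti-H3K4me1 antibody. Peaks were called once for each antibody on joined reads, and the lists give positions without height or score. The lists hold no expression values, so neither the cell label nor the activity of the 10 genes was checked. The depth behind a region and the spread between repeats are therefore unknown, and the 95% Wilson intervals below cover counting error among regions only. Unmarked, or without Runx3, means below that no overlapping region was called. A missing call does not show that Runx3 or the mark was absent.

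These genes control the step from G1 into DNA synthesis. D-type cyclins activate Cdk4 and Cdk6, which phosphorylate the retinoblastoma protein and release E2F factors, and E2F factors switch on the genes of DNA replication. Cdkn1a (p21) and Cdkn1b (p27) inhibit cyclin-dependent kinases, and Myc promotes growth and cell cycle entry. TCR and IL-2 signals drive this pathway in T cells. Runx3 binds DNA at the RUNX motif, and H3K4me1 is a histone mark common at enhancers and beside active promoters.

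The sequences of Runx3-bound DNA are shown first, because they let the RUNX motif be read at each gene. Each is the central 200 bp of 1 Runx3-bound region on the plus strand of mm9. Candidates held a RUNX motif and no exon in this window. Where the listed gene had the nearest protein-coding gene start to any candidate, the widest of those was taken, and otherwise the widest of all candidates of the gene. Capitals mark the RUNX motif, that is TGTGGT (form 1), TGTGGC (form 2), TGCGGT (form 3) or TGCGGC (form 4), and a motif on the minus strand appears as its reverse complement, for example ACCACA for form 1. The windows lay in introns of E2f2 (chr4:135733981-135734180), E2f3 (chr13:30056116-30056315), Ccnd3 (chr17:47644985-47645184), Cdk6 (chr5:3355806-3356005) and Myc (chr15:61818189-61818388). The Ccnd2 window lay upstream of the gene in an intron of the lincRNA gene 9330179D12Rik (chr6:127101964-127102163). Intergenic windows were those of Cdk4 (chr10:126512134-126512333), Cdkn1a (chr17:29215913-29216112) and Cdkn1b (chr6:134876948-134877147). The Cdk4 window came from a region whose nearest protein-coding gene start was that of Agap2, 3.73 kb away. The region at the Cdk4 start is not shown, because it was centred in untranslated exon sequence. The single region at E2f1 is not shown, since it covered exon sequence of the neighbouring gene Necab3.
E2f2: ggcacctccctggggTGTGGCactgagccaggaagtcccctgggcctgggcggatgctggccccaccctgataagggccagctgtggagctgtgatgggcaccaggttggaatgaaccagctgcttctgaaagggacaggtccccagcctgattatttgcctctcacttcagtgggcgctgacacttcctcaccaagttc
E2f3: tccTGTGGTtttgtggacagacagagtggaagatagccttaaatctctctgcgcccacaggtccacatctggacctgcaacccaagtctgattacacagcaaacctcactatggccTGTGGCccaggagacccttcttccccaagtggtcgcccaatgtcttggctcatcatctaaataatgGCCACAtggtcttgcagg
Ccnd2: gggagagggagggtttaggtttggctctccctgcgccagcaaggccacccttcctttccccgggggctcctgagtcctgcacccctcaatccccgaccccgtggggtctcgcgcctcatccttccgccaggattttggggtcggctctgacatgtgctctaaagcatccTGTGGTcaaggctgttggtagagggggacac
Ccnd3: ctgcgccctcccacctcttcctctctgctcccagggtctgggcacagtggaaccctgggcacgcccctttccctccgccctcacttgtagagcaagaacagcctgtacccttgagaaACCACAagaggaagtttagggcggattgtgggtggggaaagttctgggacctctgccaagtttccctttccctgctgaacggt
Cdk4: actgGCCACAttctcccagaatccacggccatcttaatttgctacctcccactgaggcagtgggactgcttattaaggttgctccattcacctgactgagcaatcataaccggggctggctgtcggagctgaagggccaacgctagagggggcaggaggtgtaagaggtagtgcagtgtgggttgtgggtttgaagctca
Cdk6: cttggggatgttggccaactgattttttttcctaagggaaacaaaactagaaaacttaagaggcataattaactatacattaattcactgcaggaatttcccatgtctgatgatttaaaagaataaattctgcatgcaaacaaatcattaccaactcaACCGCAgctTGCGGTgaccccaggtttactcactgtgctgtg
Cdkn1a: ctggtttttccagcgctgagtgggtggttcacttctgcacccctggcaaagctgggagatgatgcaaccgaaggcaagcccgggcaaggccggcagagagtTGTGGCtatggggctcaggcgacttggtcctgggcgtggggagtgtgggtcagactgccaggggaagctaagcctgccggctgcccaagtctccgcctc
Cdkn1b: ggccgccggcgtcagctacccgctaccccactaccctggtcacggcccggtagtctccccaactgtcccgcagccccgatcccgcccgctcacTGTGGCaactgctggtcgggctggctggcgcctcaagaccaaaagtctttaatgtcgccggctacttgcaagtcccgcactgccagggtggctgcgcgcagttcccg
Myc: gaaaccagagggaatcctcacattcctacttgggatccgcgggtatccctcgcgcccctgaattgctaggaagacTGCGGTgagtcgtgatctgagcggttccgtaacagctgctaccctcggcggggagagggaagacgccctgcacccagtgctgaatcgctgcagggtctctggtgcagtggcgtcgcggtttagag

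The 9 windows were chosen to hold a motif, so its presence in them carries no weight, but its form and surroundings differed. At Cdk6, a pair of TGCGGT motifs on opposite strands stood 3 bp apart. The E2f3 window held 3 motifs, 1 TGTGGT and 2 TGTGGC, with 107 and 60 bp between neighbours. At Ccnd3, the RUNX motif stood 2 bp from the ETS motif AGGAAG, and at Myc a TGCGGT motif also stood 2 bp from AGGAAG. In the E2f2 window 8 bp separated the TGTGGC motif from AGGAAG, and in the Ccnd2 window 43 bp separated TGTGGT from the ETS motif CGGAAG. The windows of Cdk4, Cdkn1a and Cdkn1b each held 1 TGTGGC motif and none of the ETS words searched.

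All 10 genes had at least 1 region of each list within 20 kb, as the choice of genes had fixed. Among all 22350 protein-coding genes on the autosomes and X, 34.2% had a Runx3-bound region within this distance, 39.4% had an H3K4me1-marked region and 26.2% had both. The choice of genes makes the 7641 protein-coding genes with at least 1 Runx3-bound region the closer comparison. Of these 7641, 3031 had 2 or more Runx3-bound regions and 1213 had 3 or more. Over all 22350 protein-coding genes, most of which had none, the shares were 13.6% and 5.43%, which is not a like comparison. Of the 10 genes, 8 had 2 or more Runx3-bound regions and 4 had 3 or more. The 4 were Ccnd3 with 7 regions, Cdk6 with 5, and E2f2 and Ccnd2 with 3 each. E2f3, Cdk4, Cdkn1a and Cdkn1b had 2, and E2f1 and Myc had 1. H3K4me1-marked regions numbered 16 at Ccnd3, 12 at Cdk6, 3 each at E2f2, E2f3 and Cdkn1b, 2 each at Cdk4 and Cdkn1a, and 1 each at E2f1, Ccnd2 and Myc.

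**Figure D1:**
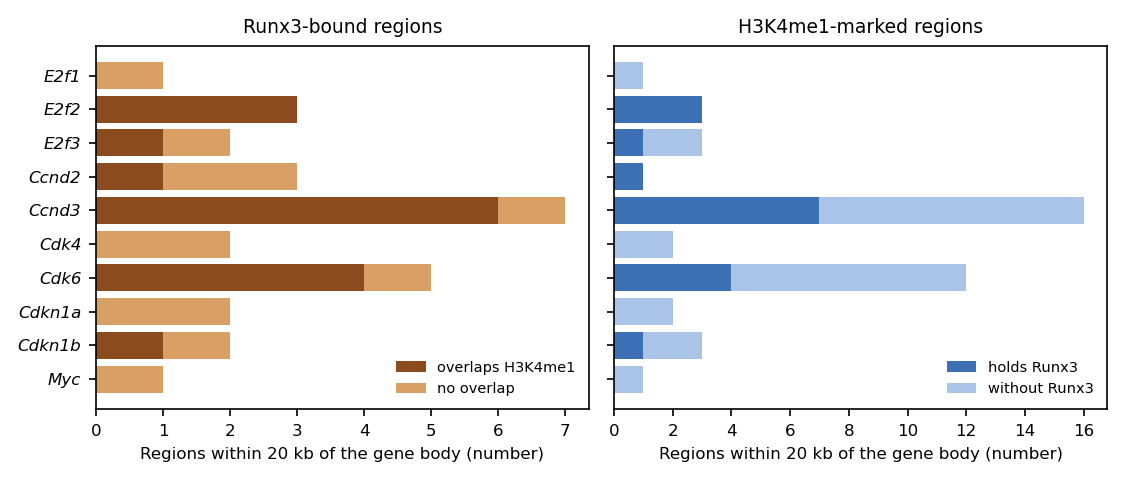
Number of Runx3-bound regions (left) and H3K4me1-marked regions (right) within 20 kb of each gene body, with dark bars for regions that overlap the other list and light bars for those that do not. Ccnd3 (7 and 16) and Cdk6 (5 and 12) had the longest bars in both panels, and E2f1, Cdk4, Cdkn1a and Myc had no Runx3-bound region that overlapped H3K4me1.

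Gene size differed among the 10 genes and bears on these counts. The windows ranged from 44.4 kb at Cdk4 to 219 kb at Cdk6, with a median of 57.1 kb against 55.4 kb over all protein-coding genes. Per 100 kb of window, Ccnd3 had 5.20 Runx3-bound regions, E2f2 4.71, Ccnd2 4.60, Cdk4 4.51, Cdkn1b 4.43 and Cdkn1a 4.02. Cdk6 had 2.28, Myc 2.22, E2f1 1.98 and E2f3 1.68. On this scale Cdk6, with the second highest count, stood close to Myc and E2f1, which had 1 region each. H3K4me1-marked regions covered 20.4% of the Ccnd3 window and 11.3% of the Cdk6 window. Cover was 10.3% at E2f2, 10.1% at Cdkn1b, 7.75% at Cdk4 and 4.39% at Cdkn1a, and from 2.16 to 3.98% at E2f1, Ccnd2, Myc and E2f3.

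The windows were defined by position, and they held 18 starts of other genes. For 20 of the 28 Runx3-bound regions the listed gene had the nearest protein-coding gene start, and for 8 another gene was nearer. The other genes were Necab3 beside E2f1, Asap3 beside E2f2, Bysl at the 3′ end of Ccnd3, Agap2 beside Cdk4, Gpr19 beside Cdkn1b, and Gm17590, whose start lies inside Cdk6 and was nearest to 3 regions. Of the 28 regions, 17 were centred inside the listed gene, 8 upstream and 3 downstream.

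**Figure D2:**
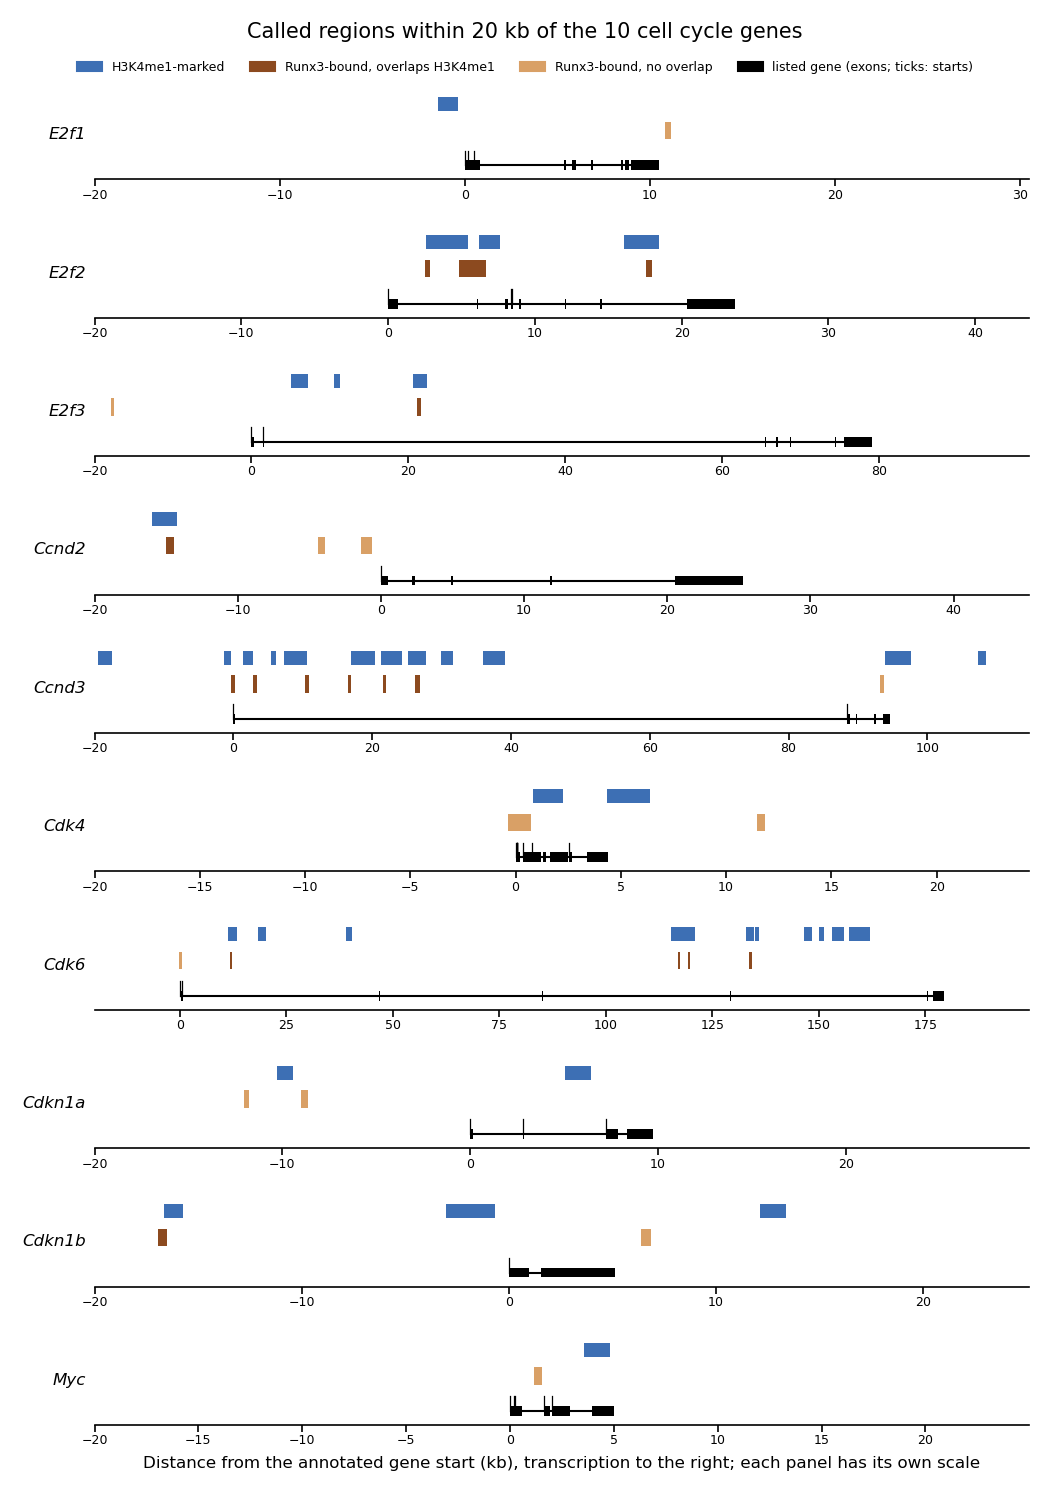
Called regions along the 10 genes, with distance from the annotated gene start in kb and transcription to the right. Blue blocks are H3K4me1-marked regions, brown blocks are Runx3-bound regions (dark where they overlap H3K4me1, light where they do not), and black blocks are exons of the listed gene with ticks at its transcript starts. The blocks crowd in the first 40 kb of Ccnd3, form separate groups at the start and in the later introns of Cdk6, and lie outside the gene body at E2f1, Ccnd2, Cdkn1a and Cdkn1b for Runx3.

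The E2F activators had 6 Runx3-bound regions in all, of which 4 overlapped H3K4me1, and none was centred within 1 kb of a start of E2f1, E2f2 or E2f3. E2f1 (chr2:154385143-154395628), a classical activator of S phase genes, had its single region at chr2:154384463-154384807, 345 bp wide and just past its 3′ end. The centre of this region was 9 bp from the start of Necab3 and 10.5 kb from the nearest start of E2f1. The central 200 bp had a GC content of 70.5%, the highest of the 28 regions, with 15 CpG and 1 TGCGGT motif. H3K4me1 was called 0.91 kb upstream of E2f1 in a region of 1.09 kb, 11.2 kb away from the Runx3-bound region. At E2f1 the called Runx3 position was thus at the start of another gene, and the H3K4me1-marked region beside the E2f1 start held no Runx3-bound region.

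E2f2 (chr4:135728309-135751972), another activator E2F, was the gene in which all 3 Runx3-bound regions overlapped H3K4me1 and all 3 H3K4me1-marked regions held Runx3. The regions were centred 2.67, 5.77 and 17.8 kb inside the gene. The middle one, chr4:135733170-135734990, was 1821 bp wide, wider than 99.96% of all Runx3-bound regions, and held 7 RUNX motifs over its whole length. It spanned a gap of 795 bp between H3K4me1-marked regions of 2.82 and 1.37 kb, overlapping both, and its centre lay in the gap. From the centre it was 2.62 kb to a second annotated start inside E2f2. The region at 17.8 kb (chr4:135745856-135746259) lay wholly within H3K4me1 and held 3 RUNX motifs in 404 bp, and the region at 2.67 kb (chr4:135730805-135731143) held 2 TGTGGC motifs in 339 bp. The regions of E2f2 thus included the widest of the 28 and lay within or across marked chromatin in each case.

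E2f3 (chr13:29998444-30077537) had 2 regions that differed in their surroundings. The region at chr13:30055948-30056483, 536 bp wide and 21.3 kb inside the gene, lay wholly within an H3K4me1-marked region of 1.80 kb and is the one whose 3 RUNX motifs are shown above. The region at chr13:30095067-30095434, 368 bp wide and 17.7 kb upstream, was intergenic and 22.6 kb from the nearest H3K4me1-marked region. It held 1 TGTGGT motif. Intron H3K4me1-marked regions at 6.17 and 10.9 kb, 2.17 and 0.77 kb wide, held no Runx3-bound region.

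The D-type cyclins had 10 Runx3-bound regions, of which 7 overlapped H3K4me1, and each of the genes had 1 within 1 kb of its own start. At Ccnd2 (chr6:127075797-127101066), which encodes the cyclin D2 subunit of Cdk4 and Cdk6 complexes, all 3 regions were upstream, in an intron of 9330179D12Rik. The region nearest to the start, chr6:127101656-127102471, was centred 997 bp upstream and was 816 bp wide, wider than 93.5% of the list. It ended 589 bp short of the start and was 12.9 kb from the nearest H3K4me1-marked region. The region 4.15 kb upstream (chr6:127104974-127105456) was 9.87 kb from H3K4me1 and was the one region of the 28 with an E2F motif in its central 200 bp. The region 14.8 kb upstream (chr6:127115534-127116100) lay wholly in the only H3K4me1-marked region of the Ccnd2 window, which was 1.71 kb wide. Runx3 was thus called just upstream of the Ccnd2 start without called H3K4me1, and together with it farther upstream.

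Ccnd3 (chr17:47642000-47736632), which encodes cyclin D3, had more regions of both lists than any other of the 10 genes. Among all protein-coding genes 99.7% had fewer Runx3-bound regions and 99.7% fewer H3K4me1-marked regions within 20 kb, while 88.6% had a narrower window. Of the 7 Runx3-bound regions 6 were centred from 17 bp upstream to 26.6 kb inside the gene. The first of them was at the gene start and reached into untranslated sequence, and the other 5 were centred in an intron. Their centres were at -0.02, 3.08, 10.6, 16.7, 21.8 and 26.6 kb, and 13 of the 16 H3K4me1-marked regions were centred between -0.83 and 38.3 kb. The smallest step between Runx3 centres was 3.10 kb and the largest, from the sixth to the seventh, was 66.9 kb.

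The 6 regions overlapped H3K4me1 to very different degrees. The region at the Ccnd3 start (chr17:47641706-47642260, 555 bp) shared 17 bp with a marked region that lay just upstream, and the region at 3.08 kb (chr17:47644770-47645399, 630 bp) shared 31 bp. The shared part was 85 bp of 459 at 16.7 kb and 368 bp of 618 at 10.6 kb. At 21.8 kb all 425 bp of the Runx3-bound region were marked. The region at 26.6 kb (chr17:47668237-47668924) shared 657 of 688 bp with a pair of marked regions 31 bp apart, and it held no RUNX motif. The seventh region, chr17:47735158-47735778, was 93.5 kb from the gene start, 5.05 kb from a second start of Ccnd3, and 122 bp from an H3K4me1-marked region of 3.75 kb that continued into Bysl. Counted by at least 1 bp, 6 of the 7 regions were marked, but at the start of the gene Runx3 and H3K4me1 met at their edges rather than over each other.

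The G1 kinases had 7 Runx3-bound regions, of which 4 overlapped H3K4me1, and each gene had 1 within 1 kb of its own start. At Cdk4 (chr10:126500590-126504976) that region was chr10:126500245-126501319. It was 1075 bp wide, wider than 98.8% of the list, reached over the untranslated and coding exons at the start, and held 5 RUNX motifs over its length. It stopped 106 bp short of an H3K4me1-marked region of 1400 bp inside the gene. A second region, chr10:126512037-126512430, was 394 bp wide and 3.73 kb from the start of Agap2. Neither region of Cdk4 overlapped H3K4me1, and the wider one ended next to it.

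At Cdk6 (chr5:3343893-3523218), the region at the start (chr5:3343839-3344381, 543 bp) was 10.8 kb from the nearest H3K4me1-marked region and held 14 CpG in its central 200 bp. The other 4 regions were in introns, and all overlapped H3K4me1. One was 12.0 kb inside the gene (chr5:3355654-3356157, 504 bp). The others were far inside at 117 kb (chr5:3460797-3461319, 523 bp), 119.5 kb (chr5:3463122-3463718, 597 bp) and 134 kb (chr5:3477579-3478266, 688 bp). Their central 200 bp had GC contents of 50.5, 39.0 and 41.0%, and the start region had 63.0%. H3K4me1 followed the same layout, with 3 marked regions centred in the first 40 kb, 0 between 40 and 110 kb, and 9 between 116 and 161 kb. The 5 marked regions from 147 to 161 kb held no Runx3-bound region, and the nearest was 12.2 to 25.6 kb away.

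The inhibitors had 4 Runx3-bound regions, of which 1 overlapped H3K4me1, and none was within 1 kb of a start of Cdkn1a or Cdkn1b. Both regions of Cdkn1a (chr17:29227924-29237667) were upstream and unmarked. The one at chr17:29215875-29216150, 11.9 kb upstream, was 276 bp wide, the narrowest of the 28, and was centred 106 bp from the start of the lincRNA gene Gm16197. The one at chr17:29218911-29219311, 8.81 kb upstream and 401 bp wide, held no RUNX motif. Its central 200 bp held the single AP-1 motif found in the 28 windows, and an H3K4me1-marked region of 0.85 kb lay 423 bp away, between the Runx3-bound regions. A further marked region of 1.34 kb was inside Cdkn1a at 5.73 kb, 13.7 kb from Runx3.

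At Cdkn1b (chr6:134870419-134875531) the regions flanked the gene. The upstream one (chr6:134853490-134853935, 446 bp) was centred 16.7 kb before the start, 5.77 kb from the start of Gpr19, and shared 160 bp with an H3K4me1-marked region of 0.94 kb. The downstream one (chr6:134876819-134877276, 458 bp) was 6.63 kb from the start and 5.25 kb from H3K4me1, and its 18 CpG were the most in any of the 28 windows. An H3K4me1-marked region of 2.36 kb, centred 1.84 kb before the Cdkn1b start, held no Runx3-bound region. At both inhibitors the called Runx3 positions were thus several kb from the gene start, and the closest marked region of each gene lay nearer. The other marked regions lay farther from the start than the nearest Runx3-bound region.

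Myc (chr15:61816946-61821929) had a single Runx3-bound region, chr15:61818090-61818486, 397 bp wide. It lay in an intron 1.34 kb from the gene start, and its centre was 301 bp from a later annotated start. It held 1 TGCGGT motif and 15 CpG in its central 200 bp. The one H3K4me1-marked region, 1.23 kb wide, was centred 4.20 kb into the gene and 2.04 kb from Runx3. Outside the window, the next Runx3-bound regions were 314 kb away on the upstream side and 168 kb away on the downstream side. For the other 9 genes the nearer of these distances ranged from 20.4 kb at Cdk6 to 114 kb at Cdkn1b. Myc therefore carried the most isolated region of the 10 genes by this measure.

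Over all protein-coding genes, 2334 (10.4%) had a Runx3-bound region centred within 1 kb of an own transcript start. These 2334 were among the 7641 genes with any Runx3-bound region within 20 kb, which the choice of the 10 genes required. The share of 10.4% is therefore not like for like. Such regions at an own start were found at 5 of the 10 genes (Ccnd2, Ccnd3, Cdk4, Cdk6 and Myc). At Ccnd2 the centre was 997 bp from the start. At Myc the region counted through a later start, and its centre was 1.34 kb from the gene start. The other 2 of the 7 regions within 1 kb of any start lay at Necab3 and Gm16197. Of the 28 regions, 7 (25%, interval 12.7 to 43.4%) were within 1 kb of a start, against 26.3% of all Runx3-bound regions. A further 7 were at 1 to 5 kb, against 17.3%, and 14 (50%) were at 5 to 50 kb, against 45.4%. No region was 50 kb or more from a start, against 10.97% of the list. The rule takes regions within 20 kb of a gene, so it leaves few of these to find.

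Overlap with H3K4me1 was found for 16 of the 28 regions (57.1%, interval 39.1 to 73.5%), against 57.3% in the whole list. It was unevenly spread over the genes, with 10 of 12 regions marked at Ccnd3 and Cdk6 and 6 of 16 at the other 8 genes. Ccnd3 and Cdk6 also had the highest H3K4me1 cover of the 10 windows, 20.4% and 11.3%, which makes overlap there more likely. Regions that shared only 17 and 31 bp at Ccnd3 are counted as marked. Overlap also varied with distance. Of the 7 regions within 1 kb of a start 1 was marked, the one at Ccnd3 that shared 17 bp, against 19.97% in the list. Of the 7 at 1 to 5 kb 4 were marked, against 65.2%, and of the 14 at 5 to 50 kb 11 were marked, against 72.9%. The centre of the Runx3-bound region was covered in 11 of the 28 (39.3%, against 46.3%), and 7 regions (25%, against 34.7%) lay wholly in marked chromatin. Of the 12 unmarked regions, 3 had H3K4me1 within 1 kb, those at Cdk4, Cdkn1a and the 3′ end of Ccnd3. Seen from the other list, 17 of the 44 H3K4me1-marked regions held Runx3 (38.6%, interval 25.7 to 53.4%), against 29.2% of all. Every window of the listed genes held a Runx3-bound region by choice, whereas the whole list was not restricted in this way. These shares are therefore not like for like.

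The unmarked regions differed in base composition from the marked ones. In the central 200 bp the median GC content was 62.5% (52.5 to 70.5%) over the 12 unmarked and 52.8% (38.5 to 62.5%) over the 16 marked regions, and in the whole list it was 53.5% over unmarked and 49% over marked regions. The median number of CpG was 11 in unmarked and 3 in marked regions, against 5 and 2 in the list. A cutoff of 7 CpG was not set in advance. It falls between the 6 CpG of a marked region at E2f2 and the 7 of unmarked regions at E2f3 and Cdkn1a. The counts that follow depend on it. At least 7 CpG were counted in 10 of the 12 unmarked and in 1 of the 16 marked regions, the latter at the Ccnd3 start. In the whole list 46.2% of unmarked and 6.34% of marked regions had as many, so the direction of this contrast was that of the list. Marking, base composition and distance from a start moved together, and their separate parts were not tested.

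Median width was 514 bp over the 28 regions and 521 bp over the list. Marked regions had a median of 546 bp (339 to 1821 bp) and unmarked regions one of 430 bp (276 to 1075 bp), so the ranges overlapped widely. The 3 widest were those in E2f2, at the Cdk4 start and upstream of the Ccnd2 start. H3K4me1-marked regions had a median of 1668 bp against 1592 bp in their list.

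**Figure D3:**
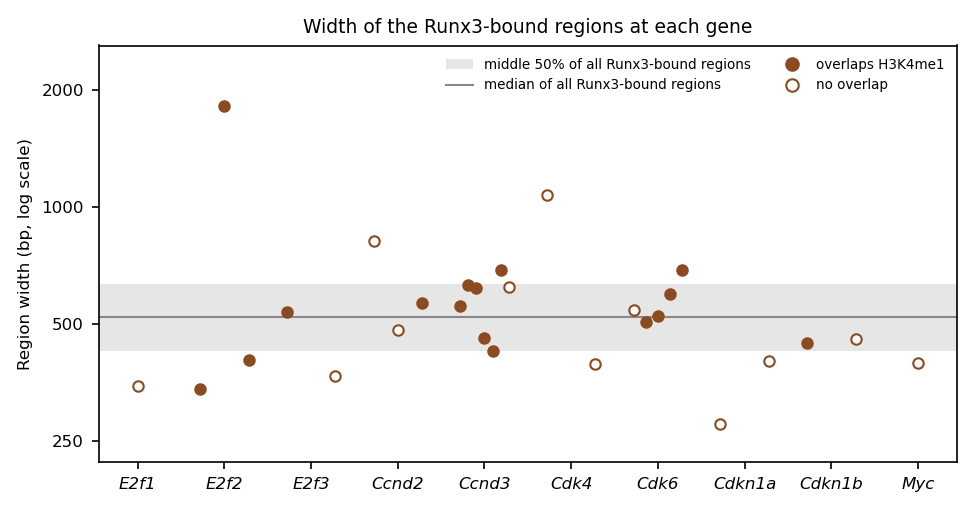
Width in bp (log axis) of each Runx3-bound region by gene, filled where it overlaps H3K4me1 and open where it does not, with the median (521 bp) and the middle 50% (425 to 633 bp) of all Runx3-bound regions. The regions of E2f2 (1821 bp), Cdk4 (1075 bp) and Ccnd2 (816 bp) stand farthest above the band. Both regions of Cdkn1a and those of E2f1 and Myc lie below it. So do other regions of E2f2 (339 and 404 bp), E2f3 (368 bp) and Cdk4 (394 bp).

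A RUNX motif was present in the central 200 bp of 26 of the 28 regions (92.9%, interval 77.4 to 98.0%) and of 78.7% of all Runx3-bound regions. The share in the list lies inside that interval. Over the whole length of the regions the shares were 92.9% and 92.6%. The exceptions were at Cdkn1a and Ccnd3. The 4 forms are given one by one, with intervals that treat regions as independent and without a test. TGTGGT was found in 9 regions (32.1%, interval 17.9 to 50.7%), against 54.3% of all. TGTGGC was found in 10 (35.7%, against 26.8%), TGCGGT in 6 (21.4%, against 13.7%) and TGCGGC in 4 (14.3%, against 8.41%). Of the 7 regions within 1 kb of a start, 5 held TGCGGT or TGCGGC (71.4%, interval 35.9 to 91.8%). They were those at E2f1, Ccnd3, Cdk4, Cdk6 and Myc. The share of such regions in the list was 38.9%, which lies inside that interval. Among the 14 regions more than 5 kb from a start TGTGGT was found in 6 (42.9%, interval 21.4 to 67.4%), against 63.5%, which lies inside that interval. In the 26 regions the nearest RUNX motif stood a median of 29 bp from the region centre.

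Other motifs were searched in the same windows on both strands. An ETS motif (AGGAAG or its variants, of which one is AGGAAA, another is CGGAAG and the last is CGGAAA) was found in 15 regions (53.6%, interval 35.8 to 70.5%), against 66.1% of the list. A RUNX and an ETS motif within 50 bp of each other were found in 10 regions (35.7%, against 39.0%), and a pair of RUNX motifs within 50 bp in 6 (21.4%, against 25.7%). AP-1 (TGACTCA on either strand), STAT (TTCNNNGAA), T-box (AGGTGTGA), E-box (CACGTG) and E2F motifs (TTTCCCGC, TTTCGCGC, TTTGCCGC or TTTGGCGC) were each found in 1 region (3.57%). Their shares in the list were 6.49, 10.7, 1.88, 4.77 and 1.24% in that order. The STAT motif was in the region at the 3′ end of Ccnd3, the E-box in the Ccnd3 region at 21.8 kb and the T-box motif in the upstream region of Cdkn1b. A STAT match can overlap an ETS word, and the E2F word TTTGCCGC can overlap form 4 of the RUNX motif.

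**Figure D4:**
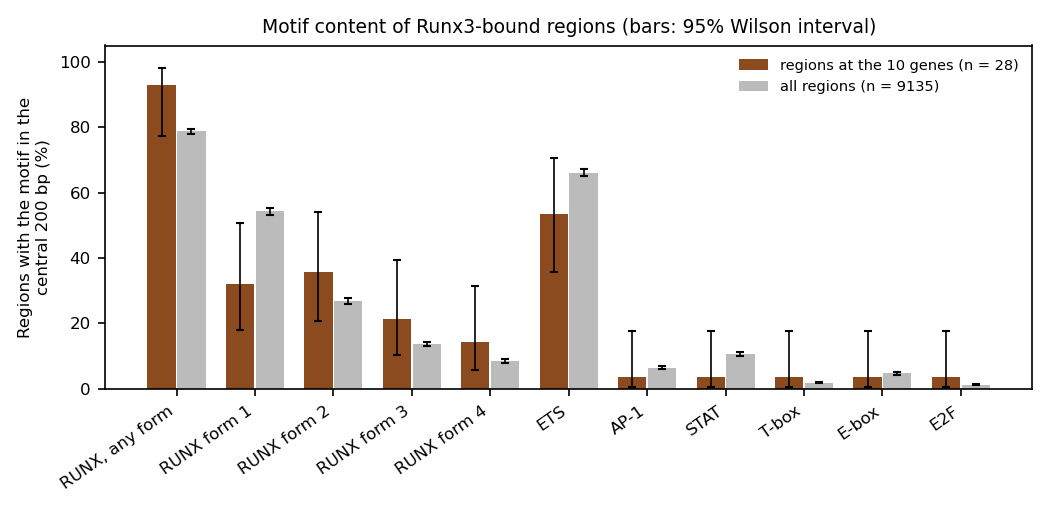
Share of Runx3-bound regions (%) with each motif in the central 200 bp, at the 10 genes (brown, n = 28) and in the whole list (grey, n = 9135), with 95% Wilson intervals as error bars. RUNX forms 1 to 4 are the words numbered in the text, and form 1, TGTGGT, is lower at the 10 genes (32.1%) than in the list (54.3%), while the intervals of the rarer motifs are wide.

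Other genes of the cell cycle, 45 in number, were examined in the same windows. A Runx3-bound region was found at 22 of them (48.9%, against 34.2% of all protein-coding genes) and an H3K4me1-marked region at 27 (39.4% of all), and 13 had neither (52.6% of all). All 3 pocket protein genes, which encode the retinoblastoma family that restrains E2F, had Runx3-bound regions, with 2 at Rb1, 3 at Rbl1 and 2 at Rbl2, and 6 of these 7 overlapped H3K4me1. Their windows were wide, at 182.2, 98.6 and 93.8 kb in that order, against a median of 55.4 kb over all protein-coding genes. Of the other E2F family members and partners 1 of 7 had one, E2f4, whereas E2f5, E2f6, Tfdp1 and Tfdp2 had no region of either list. In the MYC network 5 of 9 genes had Runx3-bound regions. The highest counts were 4 at Mnt and 3 each at Mxd4 and Mxi1, which encode partners of Max that oppose Myc. Other Max partners, Mxd1, Mxd3 and Mga, had 0, and Max itself had 0 with 5 H3K4me1-marked regions. Mxd1 and Mga had no region of either list.

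Among other cyclins 3 of 6 genes had a Runx3-bound region, namely Ccnd1, Ccne1 and Ccna2 with 1 each, all unmarked. Ccnb1 and Ccnb2, the mitotic B-type cyclins, had no region of either list. Of the other inhibitors 2 of 5 had Runx3-bound regions, 2 at Cdkn2d and 1 at Cdkn2a, and Cdkn1c and Cdkn2c had no region of either list. Of the other kinases and phosphatases 4 of 6 had 1 each, among them Cdk1 and Cdk2. In the replication licensing group 4 of 9 genes had Runx3-bound regions, with 3 at Pcna, 2 each at Cdc6 and Cdt1, and 1 at Mcm3, whereas Mcm2, Mcm6 and Mcm7 had no region of either list. No gene of the 45 reached the counts of Ccnd3 or Cdk6 in either list. These counts were not scaled by window width, which was 135 kb at Ccnd3 and 219 kb at Cdk6. Mnt, with the highest Runx3 count of the 45, had its 4 regions in a window of 54.8 kb. The counts therefore do not rank the genes by regions per 100 kb.

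**Figure D5:**
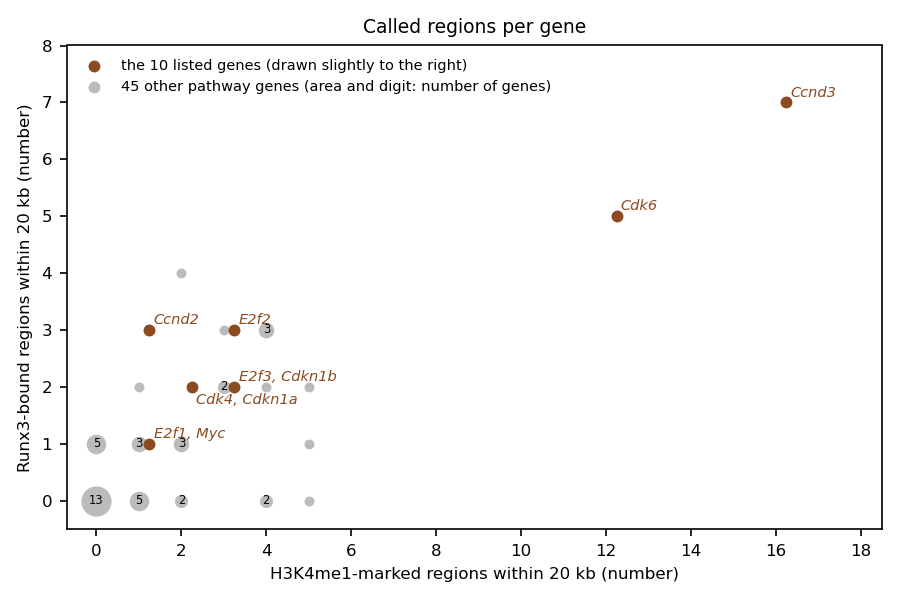
Runx3-bound regions (vertical axis) against H3K4me1-marked regions (horizontal axis) within 20 kb, for the 10 listed genes (brown, drawn slightly to the right) and 45 other cell cycle genes (grey, the digit giving the number of genes at a point). Ccnd3 (16 and 7) and Cdk6 (12 and 5) lie apart from the rest, and 13 of the 45 other genes are at 0 for both lists. The counts are not scaled by window width, which is 135 kb at Ccnd3 and 219 kb at Cdk6.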

How the data were processed

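Splenic CD8-TC were profiled by ChIP-seq with anti-Runx3, NIS or anti-H3K4me1. The authors aligned reads to mm9 with ELAND, kept unique reads, joined repeats and called peaks with MACS against NIS reads joined likewise, after scaling the larger of the read sets to the size of the other. The labels name 1 H3K4me1 library, but their protocol mentions replicate experiments with it, so the number behind that list is unclear. The deposited values are the start and end positions of each peak in bp. Unique alignment limits calls in repeats, and joining hides the spread between repeats.

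The genes and lists were chosen with earlier results of these data known. Gene models were GENCODE vM1 on NCBIM37 (mm9), and coordinates count from 1. Overlap required 1 bp or more. The distance of a region was that from its centre to the nearest annotated transcript start. Background genes were protein-coding genes on the chromosomes of the lists. All 10 genes are named, and of the 45 other genes those with the highest counts and those with no region of either list. A sequence window touching an exon was passed over for the next region. Python 3.11.15, NumPy 2.4.6, SciPy 1.17.1, pysam 0.24.0 and matplotlib 3.10.9 were used. Overlap, distance and motif functions were tested on simulated data. Alternatives were other windows, overlap rules, merged or wider regions, other motif windows and 1 start per gene.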

Additional observations from a re-analysis of the deposited data

How the results depend on the processing

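The 5 results were recomputed under 22 alternatives, of which 18 were classed as close to the reported value and 4 as moved. Those classed as close still differed. With 50 kb on each side there were 34 Runx3-bound and 56 H3K4me1-marked regions. The share under 1 kb from a start was 17.9% with 1 start per protein-coding gene, against 25%. The number of Runx3-bound regions fell from 28 to 18 with gene bodies alone and to 14 with regions at least as wide as the list median. The number of H3K4me1-marked regions fell from 44 to 23 with the latter. The share with a RUNX motif was 60.7% in the central 100 bp and 92.9% in the central 300 bp or the whole region. The share overlapping H3K4me1 ranged from 39.3% (centre covered) to 67.9% (within 1 kb), inside the interval of the reported 57.1%. Leaving out a library was not possible, because peaks were called on joined reads. No paired analysis was possible because the result comes from no test. Peaks without height or score leave the strength of each region unknown.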

Other observations

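Several of the H3K4me1-marked regions in these windows lay at neighbouring genes and held no Runx3-bound region. The widest of the 44, 3.75 kb, was centred in untranslated sequence of Bysl beyond the 3′ end of Ccnd3. Another of 1.22 kb was centred in untranslated sequence of Med20, 1.25 kb from a Med20 start, and one of 2.04 kb was centred in a coding exon of Tspan31 beside Cdk4. The narrowest of the 44, 0.69 kb, was in the first intron of Ccnd3 and also held no Runx3-bound region.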
